A study of Mus musculus with 18 samples.

Results

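The genes described are 9 T cell subset genes, Cd3e, Cd4, Cd8a, Cd8b1, Foxp3, Icos, Il7r, Pdcd1 and Lag3, chosen by symbol among the 54232 genes counted. All 9 were found in the table of counts. They were measured by bulk RNA-seq of ribosomal RNA-depleted total RNA in the lacrimal glands (LGs) of 18 male mice, with 1 whole LG per mouse and 3 mice in each of the 6 groups. The groups were BALB/cJ (BALB/c, the control strain) and NOD.B10Sn-H2b/J (NOD.H-2b, a strain that spontaneously develops a disease like Sjögren's syndrome) aged 2 (2M), 4 (4M) or 6 (6M) months. NOD.H-2b mice carry the H2b haplotype of C57BL/10SnJ mice on the NOD background. BALB/c is an unrelated inbred strain, so that disease and strain background cannot be told apart.

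T cells recognize peptides on MHC molecules through a T cell receptor that signals through the CD3 chains. CD4 is the coreceptor of helper cells for MHC class II and CD8 that of cytotoxic cells for MHC class I, while FOXP3 defines the regulatory cells that restrain both. In Sjögren's syndrome and its mouse models, T cells are a main component of the lymphocytic foci of the LG. The 9 genes follow these roles. Cd3e encodes the CD3 epsilon chain of all T cells, Cd4 the helper coreceptor, and Cd8a and Cd8b1 the chains of CD8. Foxp3 encodes the regulatory transcription factor and Icos a costimulatory receptor induced on activated and follicular helper cells. Il7r encodes the alpha chain of the IL-7 receptor, which is high on naive and memory T cells and is also made by innate lymphoid cells. Pdcd1 and Lag3 encode PD-1 and LAG-3, inhibitory receptors of activated and exhausted T cells. In whole glands, more T cells and more of a transcript per T cell cannot be told apart.

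In the GENCODE M21 annotation of GRCm38, Cd3e (ENSMUSG00000032093) was at chr9:44998740-45009627, on the minus strand and 11401 bp from Cd3d. Cd4 (ENSMUSG00000023274, chr6:124864692-124888221) and Lag3 (ENSMUSG00000030124, chr6:124904361-124911705) were neighbors on the minus strand, with 16140 bp between them. Cd8b1 (ENSMUSG00000053044, chr6:71322788-71337494) and Cd8a (ENSMUSG00000053977, chr6:71373427-71379173) were neighbors on the plus strand, with 35933 bp between them. Il7r (ENSMUSG00000003882) was at chr15:9505788-9530176 and Pdcd1 (ENSMUSG00000026285) at chr1:94038305-94052553, both on the minus strand. Icos (ENSMUSG00000026009) was at chr1:60977927-61000320 and Foxp3 (ENSMUSG00000039521) at chrX:7573644-7595245, both on the plus strand. The Foxp3 model shared 2082 exon bases with overlapping genes (among them Ppp1r3f and Ccdc22 on the other strand) and that of Cd3e shared 135. As the strand setting of the counting was not stated, the counts of these genes are less certain.

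The promoters of Cd3e and Il7r are shown because the ratio of these genes differed between the strains, as given below. Each runs from 250 bases before to 50 bases after the RefSeq start in GRCm38.p6, the C57BL/6J reference, and is printed along the minus strand on which the gene is read. Capitals mark matches to the short motifs searched on both strands, which were TGTGGT (RUNX factors), GGAAGT (ETS factors, ACTTCC on the other strand) and CTTTGA (TCF and LEF factors).
Cd3e (chr9:45009562-45009861): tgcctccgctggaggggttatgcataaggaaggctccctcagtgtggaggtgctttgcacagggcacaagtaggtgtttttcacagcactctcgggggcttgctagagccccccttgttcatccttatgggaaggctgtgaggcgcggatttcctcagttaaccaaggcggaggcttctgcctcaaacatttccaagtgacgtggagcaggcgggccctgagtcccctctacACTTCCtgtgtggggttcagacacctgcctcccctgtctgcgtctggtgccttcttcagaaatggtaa
Il7r (chr15:9529827-9530126): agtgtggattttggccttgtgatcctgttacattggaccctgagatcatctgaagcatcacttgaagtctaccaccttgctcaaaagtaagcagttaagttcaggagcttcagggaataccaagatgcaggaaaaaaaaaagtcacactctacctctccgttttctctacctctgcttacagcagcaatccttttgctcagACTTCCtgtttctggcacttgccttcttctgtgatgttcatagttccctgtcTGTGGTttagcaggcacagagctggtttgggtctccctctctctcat
The Cd3e window held 1 ETS match. The Il7r window held 1 ETS and 1 RUNX match, and neither held a TCF match. Of 32851 mouse promoters of this length, 23.8% held the ETS letters, 16.8% the RUNX letters and 16% the TCF letters. A match is a description of the letters only.

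The libraries held between 49480781 and 103936830 counts. Levels are given as CPM, the counts of a gene relative to the total of its library, scaled by TMM factors from 0.855 to 1.30. The LG epithelial genes, such as those of secretory proteins, summed to between 53517 and 107179 CPM over the 18 mice, so that the glands were rich in the tissue that their label names. A pair of mice stood apart in the summed CPM of 16 core T cell genes. NOD.H-2b 2M replicate 1 had 15.7, against 33.2 and 49.9 in its group, and BALB/c 4M replicate 3 had 11.7, against 3.37 and 4.68. Results that rest on these mice are also given without them. A gene was called when its false discovery rate was below 0.05 and its fold change 2 or more in edgeR's quasi-likelihood test over all genes tested. The p-values measure the spread between the mice of a group.

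To follow the T cell genes across strain and age, the level of each was first set out mouse by mouse. Cd3e was at 0.153, 0.126 and 0.00 CPM in the BALB/c mice at 2M, at 0.350, 0.162 and 1.12 at 4M and at 0.268, 0.639 and 0.280 at 6M. In NOD.H-2b it was at 1.36, 5.13 and 3.46 CPM at 2M, at 21.6, 12.2 and 12.3 at 4M and at 19.2, 14.3 and 18.2 at 6M. The strains did not overlap at any age, and all NOD.H-2b mice of 4M and 6M were above those of 2M.

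Cd4 followed the same order. It was at 3.02, 9.50 and 6.85 CPM in NOD.H-2b LGs at 2M, at 34.3, 17.5 and 16.9 at 4M and at 33.2, 22.9 and 27.8 at 6M. In BALB/c it was at 0.287, 0.0718 and 0.0705 CPM at 2M, at 0.313, 0.162 and 1.16 at 4M and at 0.558, 0.511 and 0.631 at 6M. Replicate 1 of 2M was the lowest NOD.H-2b mouse for both Cd3e and Cd4, and replicate 3 of 4M the highest BALB/c mouse.

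Cd8a, the CD8 chain present on all CD8 T cells and on some dendritic cells, was at 0.526, 1.98 and 0.629 CPM in NOD.H-2b LGs at 2M, at 6.67, 3.74 and 3.96 at 4M and at 3.08, 3.62 and 6.48 at 6M. In BALB/c it was at 0.0382, 0.0359 and 0.00 CPM at 2M, at 0.0368, 0.0812 and 0.537 at 4M and at 0.118, 0.0639 and 0.0467 at 6M. Cd8b1, which is more restricted to conventional CD8 T cells, was at 0.197, 0.289 and 0.283 CPM in NOD.H-2b LGs at 2M, at 2.57, 1.05 and 1.14 at 4M and at 1.79, 1.84 and 2.03 at 6M. In BALB/c, Cd8b1 had between 0 and 7 counts in each of the 9 mice. The 6M values of Cd8b1 in NOD.H-2b lay close together, while those of Cd8a spread over the range of 4M.

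Foxp3 was at 0.164, 2.02 and 1.19 CPM in NOD.H-2b LGs at 2M, at 6.44, 3.98 and 4.06 at 4M and at 6.36, 4.57 and 6.33 at 6M. It had between 0 and 6 counts in each BALB/c mouse. The low NOD.H-2b mouse at 2M held 10 counts of Foxp3, against 133 and 76 in its group.

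Icos was near the limit of detection in BALB/c. It was at 0.0821, 0.426 and 0.126 CPM in NOD.H-2b LGs at 2M, at 0.893, 0.216 and 0.440 at 4M and at 0.940, 0.735 and 1.19 at 6M. In BALB/c it had 0 counts in 8 of 9 mice, and its only 6 counts came from the 4M mouse with the most T cell transcripts.

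Il7r had the highest BALB/c level of the 9 genes per kb of exon at each age. Its CPM were 0.764, 0.484 and 0.405 CPM at 2M, 0.884, 0.670 and 2.09 at 4M and 0.858, 1.66 and 0.912 at 6M. In NOD.H-2b it was at 3.04, 6.33 and 3.66 CPM at 2M, at 17.6, 9.56 and 7.47 at 4M and at 14.1, 12.0 and 14.4 at 6M. The strains were again separate at each age, and no BALB/c mouse had fewer than 23 counts.

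Pdcd1 was at 0.148, 2.07 and 0.943 CPM in NOD.H-2b LGs at 2M, at 4.90, 2.52 and 2.74 at 4M and at 5.79, 3.22 and 4.71 at 6M. Lag3 was at 0.312, 1.58 and 1.15 CPM at 2M, at 6.35, 3.41 and 2.66 at 4M and at 6.06, 3.17 and 5.36 at 6M. In BALB/c, Pdcd1 had between 1 and 7 counts per mouse and Lag3 between 1 and 14. Lag3 was highest in BALB/c at 6M, at 0.0536, 0.128 and 0.327 CPM.

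**Figure D1:**
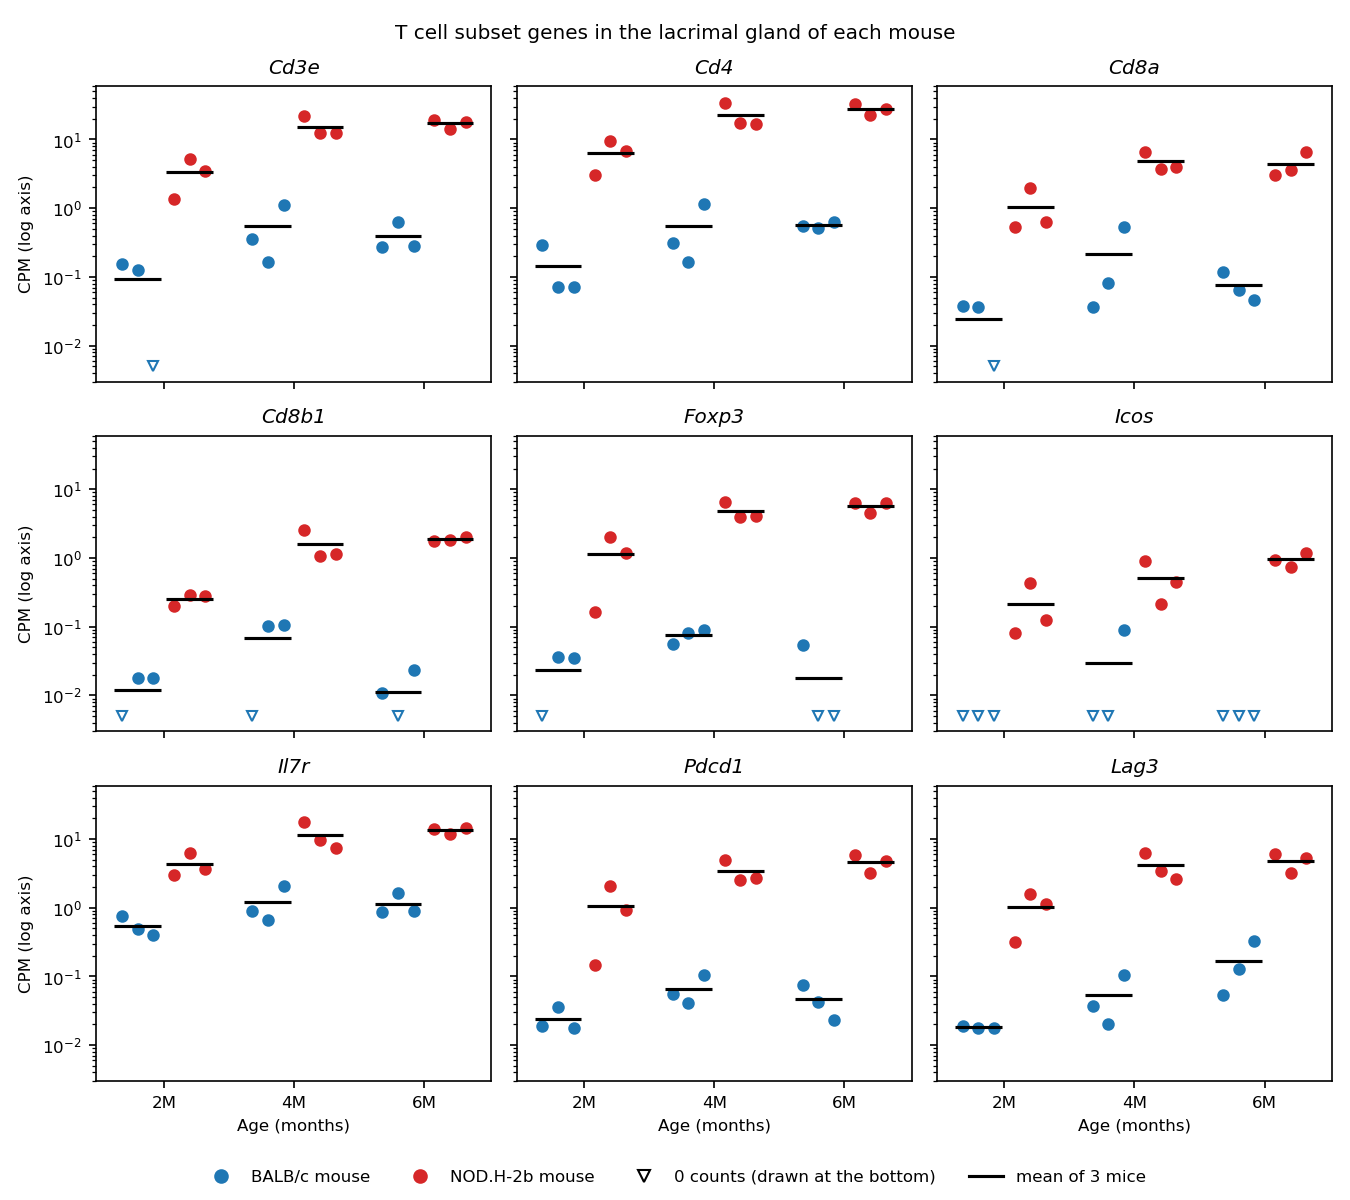
CPM of each of the 9 genes on a log axis against age, with 1 point per mouse and the mean of the 3 mice of a group as a bar, and open triangles at the bottom for mice with 0 counts. The NOD.H-2b mice lie above those of BALB/c at each age in every panel, and the NOD.H-2b mouse of 2M with 1.36 CPM of Cd3e is the lowest of its strain for all 9.

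Levels of different genes were compared per kb of exon, as the models differ in length. In NOD.H-2b at 6M, Cd4 was first at 6.93 ± 1.27 CPM per kb (SD, n = 3), Cd3e second at 4.22 ± 0.640 and Il7r next at 2.89 ± 0.283. These 3 did not overlap with their neighbors in this order, except that Il7r overlapped with Pdcd1. Pdcd1 at 2.37 ± 0.668 and Lag3 at 2.31 ± 0.716 CPM per kb overlapped with each other and lay above Cd8b1 (1.27 ± 0.0870) and Foxp3 (1.26 ± 0.224). Cd8a (1.21 ± 0.503) overlapped with all 4 of these, since replicate 3 reached 1.78. Icos was last at 0.279 ± 0.0667 CPM per kb, below all others. At 2M, Cd4 was also first, at 1.60 ± 0.807 CPM per kb, and Icos last, at 0.0616 ± 0.0546, but 7 of the 8 neighboring pairs overlapped.

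The strains were then compared at each age. At 2M, Icos and Pdcd1 did not pass the filter on low counts, and the other 7 genes were all called higher in NOD.H-2b, where 12.0% of all genes tested were called higher and 3.76% lower. At 4M and 6M, 9 of 9 were called higher, against 15.6% higher and 4.72% lower of all genes at 4M and 18.8% and 6.03% at 6M. Averaged over the ages in 1 fit of the 18 mice, all 9 passed a false discovery rate of 0.05 alone, as did 32.5% of all genes in the higher direction. Because the genes are near 0 in BALB/c, they passed the filter through their NOD.H-2b level, so that the counts are a description. Without NOD.H-2b 2M replicate 1, 8 of 8 genes tested were called at 2M, and without BALB/c 4M replicate 3, 9 of 9 were called at 4M.

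Cd4 had a log2 fold change of 5.55 ± 0.73 (SE) at 2M, 5.31 ± 0.75 at 4M and 5.66 ± 0.17 at 6M, or 46.9-, 39.6- and 50.5-fold. Its adjusted p was 0.00234, 0.00452 and 2.82e-08 (edgeR's quasi-likelihood test). Cd3e was 36.7-fold higher at 2M (adjusted p = 0.00468, edgeR), 26.9-fold at 4M (0.00371) and 46.6-fold at 6M (7.74e-07). Il7r had the smallest fold changes of the 9, of 8.14 (adjusted p = 0.00016, edgeR), 9.35 (0.00716) and 12.3 (2.14e-06). The 4M folds rest on the BALB/c mouse with the most T cell transcripts. Without it, the log2 fold change at 4M went from 4.75 to 5.88 for Cd3e, from 5.31 to 6.56 for Cd4, from 4.34 to 6.31 for Cd8a, from 3.23 to 3.88 for Il7r and from 6.12 to 7.06 for Lag3, and Icos had no BALB/c count left. At 2M, Cd4 was at 6.51 without BALB/c replicate 1 and Cd3e at 4.60 without BALB/c replicate 3. Cd8a was 20.3-fold higher at 4M (adjusted p = 0.00613, edgeR) and 51.4-fold at 6M (3.95e-06), where its log2 fold change went from 5.68 to 6.27 without BALB/c replicate 1.

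For groups with under 15 counts over the 3 BALB/c mice, the ratio of the summed counts is given with its exact 95% interval, which covers counting error only. Foxp3 was 47.4-fold higher in NOD.H-2b LGs at 2M (18.3 to 176), 64.4-fold at 4M (37.5 to 121) and 213-fold at 6M (90.9 to 656), where BALB/c replicate 1 alone had any count. The adjusted p of Foxp3 at 2M was 0.0125 in edgeR's test. It was 0.0543 without the filter on low counts, 0.0517 against a 2-fold change and between 0.0510 and 0.0681 when any of the BALB/c mice was left out, so that the call at 2M did not hold in these settings. Pdcd1 was 44.4-fold higher at 2M (17.1 to 165, not tested), 49.1-fold at 4M (27.9 to 95.5) and 85.9-fold at 6M (46.5 to 180), where its fitted log2 fold change went from 6.39 to 7.04 without BALB/c replicate 1. Lag3 was 56.6-fold higher at 2M (19.1 to 277) and 73.0-fold at 4M (39.5 to 153), and its fitted fold change at 6M was 33.7, or 5.08 on the log2 scale, against 4.46 without BALB/c replicate 1 and 5.91 without BALB/c replicate 3. Cd8a was 43.7-fold higher at 2M (16.8 to 162). Its fitted log2 fold change there went from 5.35 to 4.48 without NOD.H-2b replicate 2, and that of Foxp3 from 5.47 to 4.73. Cd8b1 was 21.2-fold higher at 2M (5.57 to 180), 23.2-fold at 4M (13.1 to 45.4) and 172-fold at 6M (47.2 to 1423), with 2 counts in all at 6M in BALB/c. Icos was at least 11.8-fold higher at 2M and at least 58.2-fold at 6M, against a floor of 3 counts over the BALB/c group. At 4M it was 14.9-fold higher (6.61 to 41.7), and its fitted log2 fold change went from 3.85 to 3.17 without NOD.H-2b replicate 1. Where tested, the genes of these groups other than Foxp3 at 2M had an adjusted p between 8.23e-07 and 0.0106 in edgeR's test.

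Whether the glands of one strain changed with age was tested next. In BALB/c the genes were mostly too low to be tested. From 2M to 6M, 3 of the 9 passed the filter, and Cd4 was called higher (log2 fold change 1.98 ± 0.52, adjusted p = 0.0482 in edgeR's test), where 1.57% of all genes were called higher. Cd3e (2.05 ± 0.74, adjusted p = 0.140, edgeR) and Il7r (1.04 ± 0.35, adjusted p = 0.117, edgeR) were not called. The Cd4 call was lost with upper quartile scaling (adjusted p = 0.0507, edgeR) and when BALB/c 2M replicate 2, 2M replicate 3, 6M replicate 1 or 6M replicate 2 was left out. Its log2 fold change was 2.95 without BALB/c 2M replicate 1. From 2M to 4M, 0 of 2 genes tested were called in edgeR and in DESeq2, against 2.07% of all genes higher, and both had an unadjusted p under 0.05. From 4M to 6M, 0 of 3 were called in edgeR and in DESeq2, none had an unadjusted p under 0.05, and 0.0180% of all genes were called higher.

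In NOD.H-2b, the 9 genes were at a higher level at 6M than at 2M, and most of the difference lay between 2M and 4M. From 2M to 4M, the log2 fold changes were between 1.28 (Icos) and 2.63 (Cd8b1). Only Cd8b1 was called (2.63 ± 0.42, adjusted p = 0.00941, edgeR), where 5.97% of all genes were called higher. Cd3e (2.21 ± 0.55) and Cd8a (2.19 ± 0.57) had an adjusted p of 0.0559 and 0.0539 in edgeR's test. DESeq2's Wald test called 6 of the 9, while the call of Cd8b1 was lost in edgeR with the replicate number as a block. Without NOD.H-2b 2M replicate 1, edgeR called Cd3e, Cd8b1 and Foxp3, and without 2M replicate 2 it called Cd3e, Cd8a and Cd8b1. The NOD.H-2b mice of 2M and 4M did not overlap for 8 of the 9 genes, and overlapped for Icos. How many of all genes were separated in this way was not counted. Of 17763 genes tested, 5692 had an unadjusted p under 0.05 in edgeR's test.

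From 2M to 6M, 7 of 9 genes were called higher, where 10.9% of all genes were. The values were 2.85 ± 0.25 for Cd8b1 (adjusted p = 0.000387, edgeR), 2.35 ± 0.49 for Cd3e (0.0192), 2.23 ± 0.57 for Lag3 (0.0287), 2.13 ± 0.53 for Icos (0.0132), 2.09 ± 0.46 for Cd4 (0.0224), 2.04 ± 0.60 for Cd8a (0.0447) and 1.61 ± 0.28 for Il7r (0.00666). Foxp3 (2.32 ± 0.76, adjusted p = 0.0661, edgeR) and Pdcd1 (2.08 ± 0.81, adjusted p = 0.105, edgeR) were not called. The mice of 2M and 6M did not overlap for any of the 9, but the share of all genes so separated was not counted. Of 18008 genes tested, 8826 had an unadjusted p under 0.05 in edgeR's test. The 7 calls rest on few mice. Without the low NOD.H-2b mouse of 2M (replicate 1), 8 of 9 were called, and Foxp3 (1.82, adjusted p = 0.00199, edgeR) and Pdcd1 (1.58, adjusted p = 0.0208, edgeR) were among them while Cd8a was not (1.73, adjusted p = 0.0778, edgeR). Without 2M replicate 2, all 9 were called and the log2 fold changes of Cd8a, Foxp3, Icos and Pdcd1 were 2.92, 3.06, 3.17 and 3.05. Without 2M replicate 3 only 2 were called, and without 6M replicate 1 or 6M replicate 3 only 3. Cd8b1 and Il7r were called each time.

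From 4M to 6M, the log2 fold changes were between -0.12 (Cd8a) and 0.89 (Icos). With edgeR, 0 of 9 genes were called, none had an unadjusted p under 0.05, and DESeq2 also called 0. Of all genes, 0.00555% were called higher. The mice of 4M and 6M overlapped for each of the 9 genes.

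**Figure D2:**
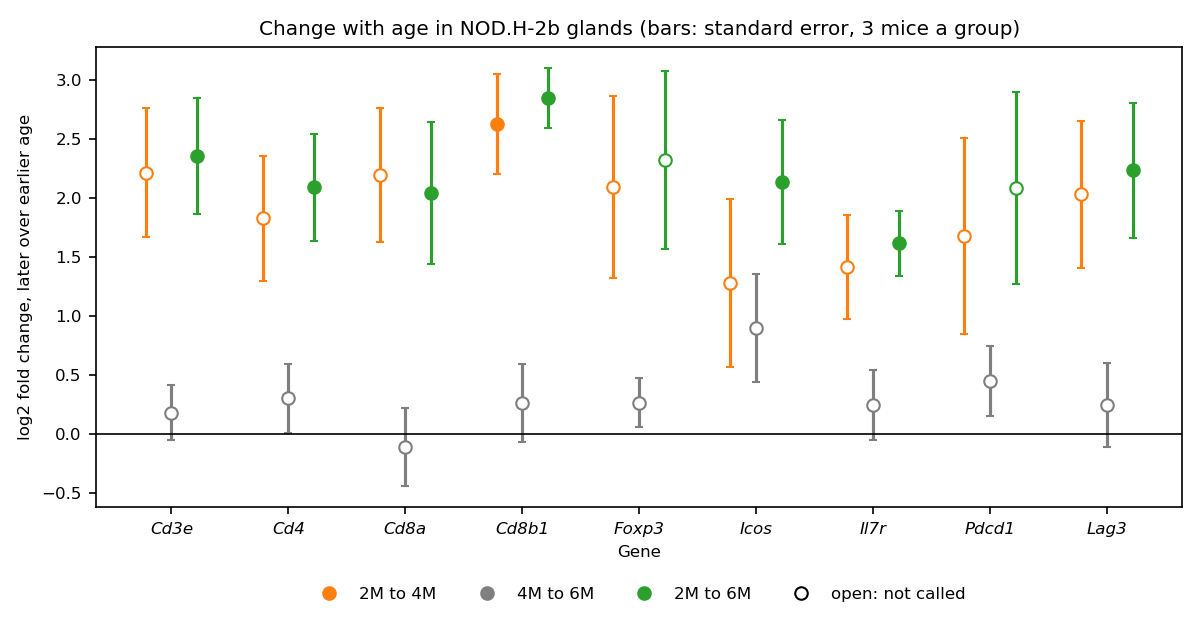
Log2 fold change between ages in NOD.H-2b LGs for each gene, with the standard error as a bar and filled points for called genes. The changes from 2M to 4M and from 2M to 6M lie between 1.28 and 2.85, and those from 4M to 6M between -0.12 and 0.89.

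A change with age that differed between the strains was tested directly in the fit of 18 mice. With edgeR, 0 of 9 genes were called, none had an unadjusted p under 0.05, and DESeq2 called 0. Of all genes, 3.60% were called in the higher direction. The log2 difference between the strains' changes from 2M to 6M was 0.35 for Cd3e, 0.12 for Cd4, 0.34 for Cd8a, 0.60 for Il7r, 1.04 for Pdcd1 and -0.62 for Lag3. It was 2.22 for Foxp3 (adjusted p = 0.503, edgeR) and 2.99 for Cd8b1 (adjusted p = 0.267, edgeR). Foxp3, Cd8b1 and Pdcd1 had under 15 counts over the BALB/c mice of either age, and Cd8a and Lag3 had under 15 at 2M. Icos had 0 BALB/c counts at both ages, so that its change in BALB/c could not be measured.

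The make-up of the T cell transcripts was described by 11 ratios between the genes within each mouse, in which library size cancels. In NOD.H-2b, the ratio of Cd8a to Cd4 per kb was 0.175 ± 0.0664 (SD, n = 3) at 2M, 0.237 ± 0.0220 at 4M and 0.179 ± 0.0780 at 6M, so that CD8 transcripts were the minority at each age. The ratio of Foxp3 to Cd4 was 0.130 ± 0.0729, 0.193 ± 0.0240 and 0.182 ± 0.0167 in the same order. At 2M it was 0.0479 in the mouse with few T cell transcripts and reached 0.188 in the others. That of Pdcd1 to Cd3e was 0.553 ± 0.313, 0.462 ± 0.0231 and 0.553 ± 0.0802, and that of Lag3 to Cd3e was 0.561 ± 0.104, 0.509 ± 0.0792 and 0.536 ± 0.0950. The inhibitory receptors thus differed by less between ages than between the mice of 2M. The ratio of Cd8b1 to Cd8a was 0.794 ± 0.388, 0.780 ± 0.143 and 1.15 ± 0.338, and that of Icos to Cd4 was 0.0354 ± 0.0159, 0.0252 ± 0.00928 and 0.0405 ± 0.00889.

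Between 2M and 6M, only 2 of the 11 ratios did not overlap between the NOD.H-2b mice. Il7r to Cd3e per kb went from 1.32 ± 0.552 at 2M to 0.642 ± 0.0967 at 4M and 0.689 ± 0.0470 at 6M, a log2 difference of -0.86 between 2M and 6M. Cd4 to Cd3e went from 2.04 ± 0.187 at 2M to 1.48 ± 0.108 at 4M and 1.64 ± 0.103 at 6M, a log2 difference of -0.31. Both had p = 0.1 in the two-sided exact permutation test, the smallest that 3 mice against 3 can give, and an adjusted p of 0.55 over the 11 ratios in this permutation test. At 2M, Il7r to Cd3e per kb was 1.95 in NOD.H-2b replicate 1, against 1.08 and 0.927 in the other mice. Without 2M replicate 1, the log2 difference was -0.54 for Il7r to Cd3e and -0.25 for Cd4 to Cd3e.

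Between the strains, the ratios were tested over all 18 mice by an exact permutation of the strain within each age, on log2 ratios with 0.5 added to each count. The ratio of Il7r to Cd3e was lower in NOD.H-2b, with a mean log2 ratio of counts of -0.10 against 2.06 in BALB/c. The difference was -2.16 (two-sided exact permutation p = 0.00025, the smallest these 8000 arrangements can give, adjusted p = 0.00275). In BALB/c the log2 ratio was 2.25, 1.87 and 5.55 at 2M, 1.31, 1.98 and 0.90 at 4M and 1.66, 1.36 and 1.66 at 6M. In NOD.H-2b it was 1.15, 0.30 and 0.08 at 2M, -0.30, -0.35 and -0.72 at 4M and -0.45, -0.25 and -0.34 at 6M. The strains did not overlap at any age, and the BALB/c value of 5.55 belongs to the mouse with 0 counts of Cd3e. From the summed counts, Il7r per kb was 2.42 times Cd3e in BALB/c (exact 95% interval 2.04 to 2.88) and 0.717 times Cd3e in NOD.H-2b (0.692 to 0.743). These intervals pool mice and ages and cover counting error only. Single NOD.H-2b mice lay between 0.927 and 1.95 at 2M and between 0.532 and 0.710 at 4M. With the mean of Cd3d, Cd3e and Cd3g in place of Cd3e, the difference was -2.21. The summed level of 11 genes of NK cells and innate lymphoid cells, of which the latter express Il7r, was between 11.8 and 21.4 CPM in the BALB/c mice and between 21.8 and 50.0 in the NOD.H-2b mice, with Il22 at 0 in all of them. Its part in the ratio was not tested.

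The ratio of Pdcd1 to Il7r was higher in NOD.H-2b, by 2.14 on the log2 scale (two-sided exact permutation p = 0.00075, adjusted p = 0.00413). It was 0.748 per kb in NOD.H-2b from the summed counts (0.708 to 0.789) and 0.124 in BALB/c (0.0800 to 0.183), where it rests on 26 counts of Pdcd1 in 9 mice. These intervals also cover counting error only. Single NOD.H-2b mice lay between 0.118 and 0.790 at 2M and between 0.649 and 0.994 at 6M. The log2 ratio of the low NOD.H-2b mouse of 2M was -4.29, within the BALB/c range of that age, and it was -1.61 and -1.95 in the other mice of 2M. Without this mouse and BALB/c 4M replicate 3, the difference was 2.36 for Pdcd1 to Il7r and -2.35 for Il7r to Cd3e. With 5 added to each count it was 0.92 for Pdcd1 to Il7r (exact permutation, adjusted p = 0.0192) and -1.59 for Il7r to Cd3e (adjusted p = 0.00137 in the permutation test). The other 9 ratios did not pass the threshold, with differences between -0.49 (Icos to Cd4) and 0.65 (Foxp3 to Cd4) and adjusted p between 0.785 and 0.976 in the permutation test. Their BALB/c values rest on few counts, and 7 of them passed the threshold when 5 was added to each count, which is more than most BALB/c counts of Cd8a, Cd8b1, Foxp3, Icos, Pdcd1 and Lag3.

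**Figure D3:**
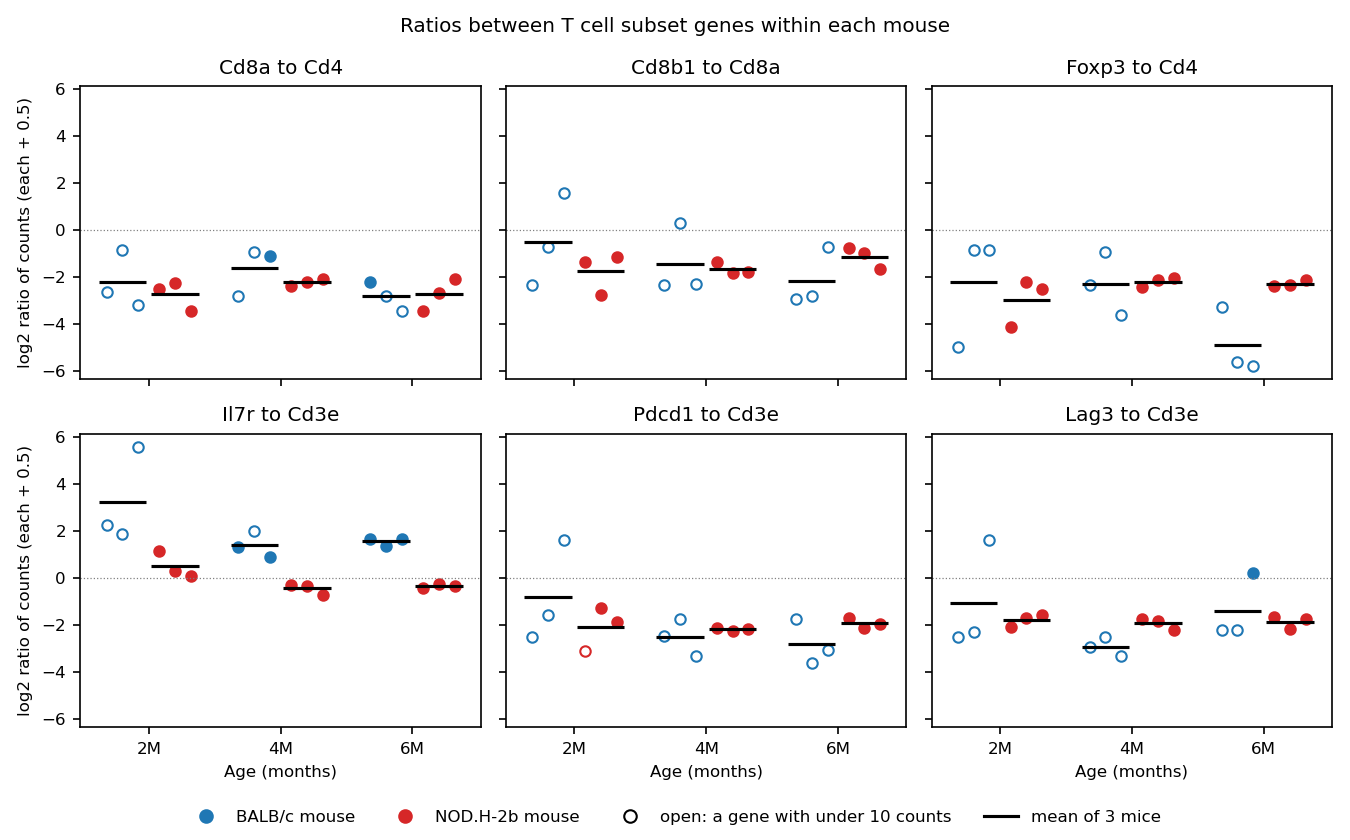
Log2 ratio of counts within each mouse (0.5 added to each count) for 6 of the 11 ratios against age, with 1 point per mouse, the mean of 3 mice as a bar and open points where either gene had under 10 counts. The NOD.H-2b mice lie below those of BALB/c at each age for Il7r to Cd3e only, where their mean was -0.10 against 2.06, and most BALB/c points of the other panels are open.

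The wider sets of T cell genes were read against the 9 genes, by lists that overlap with them. Of the 16 core T cell genes, 15 of 15 tested were called higher at 2M in NOD.H-2b LGs and 16 of 16 at 4M and 6M, with a median log2 fold change of 4.52, 4.52 and 5.57. The median of all genes was between 0.00 and 0.01 in size at each age. Of all genes tested, 12.0%, 15.6% and 18.8% were called higher at 2M, 4M and 6M, which holds for the lists below too. Cd6, a surface receptor that tunes T cell activation, was at 1.86 ± 1.42 CPM (SD, n = 3) in NOD.H-2b LGs at 2M, 6.99 ± 3.12 at 4M and 7.33 ± 1.07 at 6M, with 2, 22 and 6 counts over the BALB/c mice of those ages. Cd3d, the CD3 delta chain, was at 1.08 ± 0.674, 4.25 ± 1.71 and 4.07 ± 1.12 CPM in NOD.H-2b, and Ubash3a, a negative regulator of T cell receptor signaling, at 0.905 ± 0.432, 4.04 ± 2.28 and 3.90 ± 0.319.

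Of the 21 helper T cell genes, 8 of 11 tested were called higher at 2M, 10 of 14 at 4M and 12 of 15 at 6M, with a median log2 fold change of 3.73, 4.33 and 5.66. Zbtb7b and Bcl6, transcription factors of helper lineages that other cells also make, were tested at each age and never called (log2 fold change between -0.62 and -0.07). Stat4, the transducer of IL-12 signals, was 32.3-fold higher at 2M by summed counts (14.6 to 89.1) and 37.4- and 117-fold at 4M and 6M. Ccr6, a chemokine receptor of Th17 cells and B cells, was 9.28-fold higher at 2M, 85.7-fold at 4M and 102-fold at 6M. Sh2d1a, the adaptor SAP of helper cells that assist B cells, was 38.1-fold higher at 2M (10.2 to 320), 53.8-fold at 4M (20.7 to 199) and 119-fold at 6M (32.6 to 987) by summed counts.

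Of the 15 cytotoxic genes, 14 of 14 tested were called higher at 2M, 13 of 14 at 4M and 14 of 14 at 6M. Their median log2 fold change was 4.36, or 4.24 with the genes at 0 in BALB/c set to their lower bound, at 2M, 3.05 at 4M and 4.58 at 6M. Prf1, the pore-forming protein of cytotoxic granules, was at 0.898 ± 0.516 CPM in NOD.H-2b LGs at 2M, 1.59 ± 0.380 at 4M and 1.41 ± 0.304 at 6M. Gzmk, a granule protease, was at 0.252 ± 0.0964, 0.538 ± 0.0580 and 0.649 ± 0.128 CPM, and was at least 13.9-fold higher than in BALB/c at 2M and at least 40.3-fold at 6M. Crtam, a receptor of activated cytotoxic cells, was at 0.744 ± 0.514, 2.35 ± 0.709 and 2.94 ± 0.668 CPM in NOD.H-2b. NK cells share most of these genes.

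Of the 19 regulatory T cell genes, 10 of 15 tested were called higher at 2M and 14 of 18 at 4M and 6M, with a median log2 fold change of 1.56, 3.38 and 3.86, and 1 was called lower at each age. The lower gene was Gpr83, a G protein-coupled receptor made by regulatory T cells and in other tissues, at 2.55, 4.71 and 5.36 CPM in BALB/c against 0.193, 0.497 and 0.854 in NOD.H-2b. Gpr83 was named after its values were seen. Tigit, an inhibitory receptor, was at 1.07 ± 0.683 CPM in NOD.H-2b LGs at 2M, 2.66 ± 0.530 at 4M and 2.86 ± 1.27 at 6M. Tnfrsf18, which encodes GITR, was at 0.674 ± 0.385, 3.19 ± 0.961 and 3.25 ± 0.788 CPM, and Tnfrsf9, which encodes 4-1BB and also stood in the list of activated cells, at 0.750 ± 0.270, 1.77 ± 0.234 and 1.79 ± 0.554.

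Of the 14 naive T cell genes, 6 of 13 tested were called higher at 2M, 9 of 14 at 4M and 11 of 14 at 6M, with a median log2 fold change of 0.99, 2.45 and 2.76. Lef1, a transcription factor of early T cells, was at 0.812 ± 0.548 CPM in NOD.H-2b LGs at 2M, 8.31 ± 3.77 at 4M and 7.62 ± 1.26 at 6M, and Cd27, a costimulatory receptor of T and B cells, at 1.21 ± 0.839, 5.17 ± 1.70 and 5.13 ± 1.55. Satb1, Actn1 and Foxp1, which many cell types make, were tested but not called at any age.

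Of the 13 genes of activated or costimulated T cells, 7 of 8 tested were called higher at 2M and 11 of 12 at 4M and 6M, with a median log2 fold change of 3.83, 4.16 and 5.23. Slamf6, a receptor shared with B cells, was at 3.39 ± 2.39 CPM in NOD.H-2b LGs at 2M, 25.4 ± 12.1 at 4M and 34.0 ± 10.4 at 6M. Cd69, an early activation marker, was at 1.41 ± 0.697, 4.81 ± 1.69 and 7.46 ± 2.68 CPM. Of the 17 exhausted T cell genes found in the table, 9 of 14 tested were called higher at 2M, 14 of 16 at 4M and 13 of 16 at 6M, with a median log2 fold change of 2.55, 2.87 and 3.48. Btla, an inhibitory receptor of T and B cells, was at 3.23 ± 2.27 CPM in NOD.H-2b LGs at 2M, 24.1 ± 9.03 at 4M and 27.2 ± 9.11 at 6M, and Cd101 at 0.360 ± 0.122, 1.00 ± 0.0996 and 0.808 ± 0.307. Nr4a1 and Nr4a2, early response genes of many cells, were not called at any age.

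**Figure D4:**
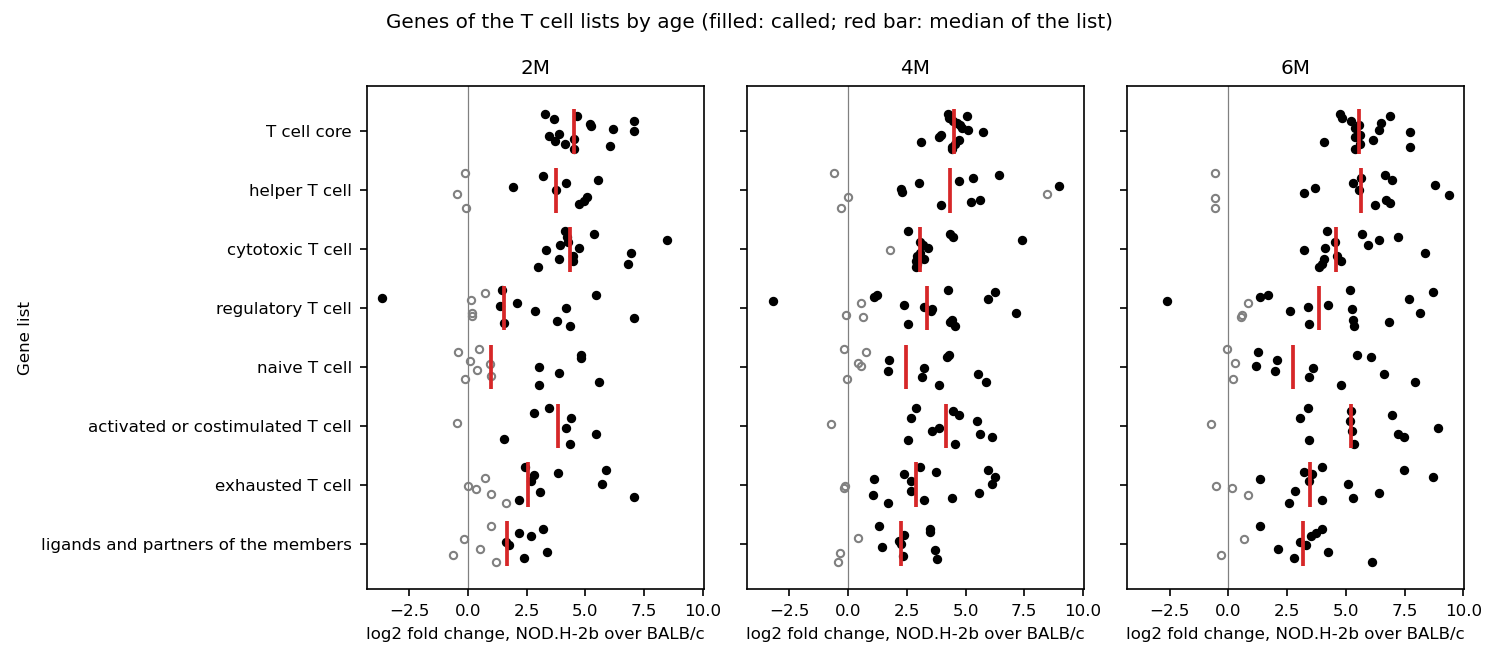
Log2 fold change of NOD.H-2b over BALB/c for the tested genes of 8 lists at 2M, 4M and 6M, with filled points for called genes and the median of a list as a red bar. The core T cell genes are all called at each age with medians of 4.52, 4.52 and 5.57, and the medians of naive T cell genes are the lowest of the 8 lists at 2M and 6M, at 0.99 and 2.76. Fitted values of genes at 0 in BALB/c depend on the fit's prior count.

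Of 14 ligands and partners of the 9 genes, 7 of 12 tested were called higher at 2M, 10 of 13 at 4M and 10 of 12 at 6M, with a median log2 fold change of 1.67, 2.24 and 3.18. Cd274, which encodes the PD-1 ligand PD-L1, was 9.06-, 11.1- and 15.9-fold higher in NOD.H-2b, and Il2rg, the common cytokine receptor chain that pairs with the IL-7 receptor, 10.2-, 13.1- and 19.0-fold. Cd80, a costimulatory ligand of antigen-presenting cells, was 4.58-, 11.1- and 13.2-fold higher. The MHC class II gene H2-Ab1, whose product binds CD4 and LAG-3, was called at each age and went from 17.5 to 56.4 CPM between the strains at 2M and from 18.2 to 175 at 6M. As NOD.H-2b mice carry the H2b haplotype in this region, haplotype and level cannot be told apart here, and the part of haplotype was not tested. Icosl, the ligand of ICOS, was not called at 2M (0.51) and was called at 4M (1.43) and 6M (2.11 on the log2 scale). Il7, the ligand of the IL-7 receptor, was not called at any age (-0.61, -0.34 and -0.31 on the log2 scale), with 6M levels of 1.23 CPM in BALB/c against 0.978 in NOD.H-2b. Fgl1, a ligand of LAG-3, had 0 counts in every mouse. H2-Ab1, Icosl, Il7 and Fgl1 were named after their values were seen.

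From 2M to 6M in NOD.H-2b, 15 of 16 core T cell genes were called higher, 11 of 15 helper, 8 of 15 cytotoxic, 10 of 19 regulatory, 10 of 14 naive, 10 of 12 activated and 9 of 17 exhausted T cell genes, and none lower. Their medians were 2.14, 1.75, 1.04, 1.28, 1.84, 1.68 and 1.30 on the log2 scale, against 2.13 for the 9 genes and -0.01 for all genes. Of all 18008 genes tested, 10.9% were called higher and only 279 lower, so that few lower calls are to be found in any short list.

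Markers of other cells differed in how far they followed the 9 genes, and those of B cells were higher in NOD.H-2b and rose with age there. The summed level of 8 B cell genes was between 0.123 and 2.30 CPM in all BALB/c mice, between 0.969 and 27.3 in NOD.H-2b LGs at 2M, between 138 and 301 at 4M and between 212 and 419 at 6M. The NOD.H-2b mouse with the fewest T cell transcripts at 2M also had the lowest B cell sum. The sum of 8 macrophage genes was between 44.8 and 105 CPM in BALB/c LGs and between 157 and 261 in NOD.H-2b, that of 9 dendritic cell genes between 10.5 and 21.5 and between 18.5 and 62.9, and that of 6 plasma cell genes between 405 and 661 and between 440 and 1075. Xbp1, which secretory cells also make, was the largest part of the plasma cell sum at 2M (377 CPM for BALB/c, 354 for NOD.H-2b). Jchain, the joining chain of antibodies, was then at 8.92 and 110 CPM. For BALB/c, Xbp1 stayed above Jchain at 4M (373 against 173 CPM) and 6M (370 against 194). For NOD.H-2b, Jchain was above Xbp1 at 4M (546 against 310 CPM) and 6M (606 against 288). The sum of 10 epithelial genes was between 77664 and 107179 CPM in BALB/c LGs and between 53517 and 77461 in NOD.H-2b. It rests on the secretory genes Scgb2b7 (71705 and 61996 CPM at 2M in this order of the strains) and Esp15 (19192 and 8448), and the median log2 fold change of the 10 genes was 0.41, -0.07 and -0.26 at 2M, 4M and 6M, with 1 called higher and 1 lower at each age. Among the defining markers, Trdc, the constant region of the gamma delta T cell receptor, was at 0.0182, 0.221 and 0.231 CPM in BALB/c at 2M, 4M and 6M and at 0.935, 2.20 and 1.65 in NOD.H-2b. The sum of 7 gamma delta T cell genes was between 74.2 and 96.2 CPM in BALB/c LGs and between 39.3 and 57.6 in NOD.H-2b. It rests on Sox13, which is also made by non-immune cells, with 2M levels of 81.0 CPM in BALB/c against 45.1 in NOD.H-2b. Neighboring tissue gave little signal. The sum of 7 skeletal muscle genes was between 0.230 and 1.54 CPM over the 18 mice, that of 5 adipocyte genes between 1.62 and 5.74 and that of 6 salivary gland genes between 1.86 and 13.2, with Smr3a at 0 in every mouse. The sum of 5 erythroid genes was between 26.2 and 58.7 CPM in BALB/c LGs and between 32.6 and 91.4 in NOD.H-2b. The part of these cells in the levels of the 9 genes was not tested.

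Likeness to each of the 9 genes was measured as a root mean square difference between log2 CPM profiles, each centered on its mean over the 18 mice, among 13579 genes, and the 2 nearest genes were taken. Those of Cd3e included Cd3g (0.514), the CD3 gamma chain. Those of Cd4 included Sh2d2a (0.550), a T cell adaptor, as did those of Cd8a (0.425). For Foxp3 they were Izumo1r (0.526), which encodes a folate receptor of regulatory T cells, and Lck (0.564), the kinase bound to CD4 and CD8. For Il7r they were Csf2rb2 (0.255), which encodes a receptor chain for IL-3, and Ptger4 (0.275), a prostaglandin E2 receptor. Cd8b1 was nearest to Kynu (0.451) and Arhgap4 (0.488), Icos to Akna (0.367) and Neurl3 (0.433), Pdcd1 to Gm28187 (0.466) and Izumo1r (0.475), and Lag3 to S1pr4 (0.528) and Cd3g (0.582). The smallest differences were those of Il7r. All 18 mice share the contrast between strains, so that these values describe likeness over these groups only.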

How the data were processed

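RNA-seq libraries were prepared from the LG of 18 male mice, 3 per group of strain and age. The deposited count table was made by the authors with cutadapt, STAR (GRCm38) and HTSeq, as the submitters' processing notes and the methods say, with 1 raw count per Ensembl gene and mouse. The annotation release and the strand setting are not given in the sources used here. The deposited log2 table was made by the authors from the same counts, divided by a DESeq2 size factor per mouse, plus 1, and it served only to check this relation. Of 54232 genes, 54079 were found in GENCODE M21.

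Counts were analyzed with R 4.3.3, edgeR 4.0.16 (TMM, filterByExpr, robust quasi-likelihood test, Benjamini-Hochberg adjustment over all genes tested) on the 6 mice of each comparison, and on all 18 mice for the strain averaged over ages and for strain by age. Standard errors came from the fold change and the F statistic. Ratios were tested by exact permutation in Python 3.11.15 with scipy 1.17.1, and p-values were adjusted over 11 ratios. The pseudocount was 0.5, and the floor was 3 counts over a group. The depth of 49480781 to 103936830 counts limits the BALB/c values. All intervals of summed counts, in both strains, cover counting error only. Exon lengths were those of the merged exons of a gene.

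The alternatives were DESeq2 size factors, upper quartile scaling, testing all genes without a filter, a filter of 10 counts or more in each mouse, the Wald test of DESeq2 1.42.0, glmTreat against a fold change of 2, 1 fit of all 18 mice or of the 12 mice of 2M and 6M, the replicate number as a block, pseudocounts of 0.1 and 5, another denominator for Cd3e and leaving out each mouse. Leaving out NOD.H-2b 2M replicate 1 and BALB/c 4M replicate 3 together was chosen after seeing the data. The scripts were tested on simulated data. Named genes were the 9 members, the 3 genes of each T cell list and of the ligands that had the largest log2 fold changes on average over the ages, of those called 1 way at all ages, and the 2 genes most like each member (average log2 CPM of at least 0), of which some are not reported here. The members and lists were chosen with earlier results of these data known. Promoters were from the RefSeq table for GRCm38.p6, in which Cd3e, Cd8a, Foxp3, Il7r and Pdcd1 were found. No 2 replicates were identical.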

Additional observations from a re-analysis of the deposited data

Results flagged for a closer look

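The change of Ccr6 from 2M to 6M differed between the strains in the interaction test of the 18 mice. Its log2 fold change over this interval was larger by 3.48 in NOD.H-2b than in BALB/c (adjusted p = 0.0360, edgeR's quasi-likelihood test). The gene was at 0.114 ± 0.0799 CPM in BALB/c at 2M and 0.103 ± 0.0345 at 6M (SD, n = 3), and at 1.05 ± 0.598 and 11.0 ± 3.59 in NOD.H-2b. The adjusted p was 0.0836 without the filter on low counts and 0.0548 with the replicate number as a block in edgeR's test. Leaving out 1 mouse lost the call in 7 of 18 cases, with an adjusted p of up to 0.190 (without BALB/c 2M replicate 2, where the difference was 2.78). These were BALB/c 2M replicates 2 and 3, the 3 BALB/c mice of 6M, NOD.H-2b 2M replicate 3 and NOD.H-2b 6M replicate 1. DESeq2 gave 0.00144. Ccr6 was not alone, as 3.60% of all genes were called higher in the interaction test. By overlapping lists, 3 of 19 regulatory, 2 of 14 naive, 1 of 16 core and 1 of 12 activated T cell genes were called higher. So were 3 of 13 ligands and partners and 1 of 8 B cell genes, but 0 of 15 cytotoxic and 0 of 17 exhausted T cell genes. The cause of the difference in Ccr6 was not tested.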

How the results depend on the processing

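No called result reversed its direction in the settings run. The higher level of the members in NOD.H-2b was called for the same number of them, or within 1.5 times of it, in all settings but 1. With at least 10 counts in every sample, 1, 1 and 3 members were called at 2M, 4M and 6M and 1 averaged over ages, as no more could be tested. Leaving out a mouse gave 6 to 8 calls at 2M and 9 at 4M, at 6M and averaged over ages. The calls with age depended on the processing, and the cause was not tested unless named. For NOD.H-2b from 2M to 4M (1 call), DESeq2 gave 6, the replicate block 0 (Cd8b1 then had 2.50 and an adjusted p of 0.0578 in edgeR's test) and leaving out a mouse 1 to 3. For 2M to 6M (7 calls), the replicate block gave 3 and leaving out a mouse 2 to 9. For BALB/c from 2M to 6M (1 call), there were 0 calls with upper quartile scaling, with at least 10 counts in every sample and with the replicate block, 3 without the filter and 0 to 2 when a mouse was left out. From 2M to 4M (0 calls) there were 4 without the filter, where 9 members were tested, and 0 to 1 when a mouse was left out. Strain by age gave 0 calls in each setting run. The labels do not say whether same-numbered mice belong together. Deviations of same-numbered mice from their group means correlated at 0.298, 0.103 and 0.009 between NOD.H-2b 4M and 6M. Between NOD.H-2b 2M and 4M they correlated at -0.300, -0.098 and 0.011. Whether the numbers mark shared handling was not tested, and the replicate block takes degrees of freedom from 6 mice. With a pseudocount of 5 in place of 0.5, Il7r to Cd3e and Pdcd1 to Il7r passed the threshold between strains with smaller differences, as given above. In that setting 7 more ratios passed, with log2 differences of 0.46 (Cd4 to Cd3e), -0.74 (Cd8a to Cd3e), -1.20 (Cd8a to Cd4), -0.88 (Cd8b1 to Cd8a), -2.78 (Icos to Cd4), -0.67 (Pdcd1 to Cd3e) and 1.66 (Pdcd1 to Icos). Leaving out a mouse gave between -2.38 and -1.77 for Il7r to Cd3e and between 1.97 and 2.42 for Pdcd1 to Il7r. Low BALB/c counts limit the folds and ratios, and 3 mice a group limit the changes with age.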
